A study of Mus musculus with 20 samples.

Results

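The genes described here are 10 genes of the brain endothelium and the blood-brain barrier, Cldn5, Pecam1, Cdh5, Slc2a1, Mfsd2a, Abcb1a, Flt1, Tek, Vwf and Ly6c1. The rule lists them by name and sets no threshold on their values, and they were found by mapping the Ensembl identifiers of the count table to GRCm38 symbols. They are 10 of 47729 identifiers in the table and 10 of the 16692 genes that passed a filter on low counts, so all 10 were tested. RNA-seq was done on the hippocampus of C57BL/6 males, giving 20 libraries in 4 groups of 5. Mice of the groups 5mSC and 5mEE were 5 months old, and mice of 24mSC and 24mEE were 24 months old. SC is a standard cage, and EE is an enriched environment with added objects and space. Strain and sex were the same in all groups, and the labels name no transgene or drug. According to the paper, old mice entered enrichment only late in life and the housing held running wheels, whereas the paper does not describe enriched young mice.

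The walls of brain capillaries are formed by endothelial cells that are sealed to each other by tight junctions and that carry out little vesicular transport. Nutrients cross them through dedicated transporters, and many foreign compounds are pumped back into the blood. Pericytes and astrocyte endfeet surround these vessels, and signals from them maintain the barrier.

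In all libraries the 10 genes had between 102 and 2783 counts, and the totals per library lay between 11 and 34.1 M counts (M, mega). Levels are given as CPM, the counts over the TMM-scaled library total in M counts, and differences as log2 fold changes with their standard error (SE) or 95% interval. In 5mSC replicate 3, mitochondrial ribosomal RNA took 26.8% of the counts, against 0.883 to 1.82% elsewhere. The summed level of 9 choroid plexus markers was 384 CPM in this library and 34.3 to 60.8 CPM in the rest of its group, that of 10 lymphocyte and monocyte markers was 43.7 CPM and 0.648 to 1.34 CPM, and that of 8 hippocampal neuron markers was 2867 CPM and 4738 to 5661 CPM. In 24mSC replicate 1, the summed level of 6 red blood cell markers was 233 CPM, against 29.3 to 39.5 CPM in the rest of its group. The part of these features in the results was not tested, and a part of the results that these libraries move is also given without them. All 18 markers of a wider endothelial core list, which holds none of the 10 genes, passed the filter, as did the neuronal markers Slc17a7 and Snap25 of the labelled tissue. In bulk tissue, a lower number of endothelial cells and less RNA per endothelial cell cannot be told apart.

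The promoters of Flt1, Tek and Cldn5 are shown because these are the receptor genes and the tight junction gene of the set, and their highest values lay in 3 different libraries. RefSeq entries on GRCm38.p6, from 250 bases before to 50 bases after the start, matched 7 of the 10 genes. Each sequence runs 5′ to 3′ on the strand of the gene, and capitals mark matches to AGGAAG (an ETS-type word), ACAAT (a SOX-type word) or TGACGTCA (the cAMP response element), each searched on both strands.
Flt1, chr5:147725962-147726261, minus strand: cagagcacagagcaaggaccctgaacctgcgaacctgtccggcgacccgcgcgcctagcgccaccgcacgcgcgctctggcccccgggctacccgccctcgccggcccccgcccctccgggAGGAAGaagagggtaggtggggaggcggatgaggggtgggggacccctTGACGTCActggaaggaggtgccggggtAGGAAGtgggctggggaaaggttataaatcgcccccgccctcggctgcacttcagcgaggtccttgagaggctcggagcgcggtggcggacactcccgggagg
Tek, chr4:94739039-94739338, plus strand: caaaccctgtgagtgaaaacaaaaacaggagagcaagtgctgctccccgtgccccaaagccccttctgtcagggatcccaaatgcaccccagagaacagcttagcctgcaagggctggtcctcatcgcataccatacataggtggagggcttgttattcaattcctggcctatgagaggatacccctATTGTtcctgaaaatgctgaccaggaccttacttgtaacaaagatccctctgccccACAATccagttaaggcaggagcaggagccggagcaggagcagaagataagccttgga
Cldn5, chr16:18776597-18776896, plus strand: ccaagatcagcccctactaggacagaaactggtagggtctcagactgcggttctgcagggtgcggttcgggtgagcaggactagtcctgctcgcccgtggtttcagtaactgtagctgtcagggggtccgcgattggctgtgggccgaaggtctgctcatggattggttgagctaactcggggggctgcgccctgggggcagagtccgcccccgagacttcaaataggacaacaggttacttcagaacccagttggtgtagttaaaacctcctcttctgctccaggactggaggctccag
The Flt1 promoter held 2 matches to AGGAAG and 1 to TGACGTCA, the Tek promoter held 2 matches to ACAAT, and the Cldn5 promoter held 0 matches to any of them. No match overlapped another. Among 32841 promoters of the same length, 35.4% held AGGAAG, 31% held ACAAT and 1.79% held TGACGTCA. These matches describe the letters of the windows and are not evidence of binding.

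Levels between genes were compared per kb of exon length, averaged over the 20 libraries. This length merges the exons of all annotated transcripts of a gene, such as 16064 bases for Vwf and 4203 bases for Cdh5. It can exceed the length of the transcript expressed, so the order of the genes holds for this choice of length only. Cldn5 was at 21.8 ± 5.85 CPM per kb and Slc2a1 at 21.3 ± 4.83 CPM per kb (SD), and Cldn5 was the higher of these in 9 of 20 libraries, so their order was within the spread. Ly6c1 at 9.68 ± 1.52 and Mfsd2a at 8.84 ± 1.71 CPM per kb followed, with Ly6c1 the higher in 12 of 20 libraries. Flt1 (4.88 ± 1.26 CPM per kb) and Abcb1a (3.94 ± 1.23 CPM per kb) came next, and Flt1 was above Abcb1a in 20 of 20 libraries. Pecam1, Tek and Cdh5 lay at 3.04 ± 0.737, 2.75 ± 0.923 and 2.53 ± 0.733 CPM per kb, and Tek was above Cdh5 in 13 of 20 libraries. Vwf was lowest at 1.15 ± 0.902 CPM per kb and stood below Cdh5 in 20 of 20 libraries. Vwf also varied most, with a highest CPM 7.03 times its lowest, and Ly6c1 least, with a ratio of 1.75. The level of Ly6c1 is less certain than the others, since 32.8% of its 50-base words occur in other genes, mainly Ly6c2 and Ly6a. The same holds for Abcb1a, with 22.5% of words shared, mainly with Abcb1b, and 10.1% of its exons under the antisense gene Gm42686 in libraries whose kit does not mark the strand.

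Across the groups, none of the 10 genes passed the test in any comparison. The test was edgeR's quasi-likelihood test with Benjamini-Hochberg adjustment over all 16692 genes, with a gene called at an adjusted p under 0.05. Old and young mice in a standard cage are compared in 24mSC vs. 5mSC, where 0.803% of all genes were called (134 genes, and 3415 at an unadjusted p under 0.05), against 0 of 10 members, of which 1 was at an unadjusted p under 0.05. In 24mEE compared with 5mEE, the same question under enrichment, 0.108% of genes were called (18 genes, and 769 at an unadjusted p under 0.05), against 0 members, of which 2 were at an unadjusted p under 0.05. These numbers of called genes varied with the tool, since DESeq2 called 759 and 39 genes in these 2 age comparisons and limma-voom with sample quality weights called 306 and 162. In 24mSC vs. 5mSC, edgeR called 30 to 1127 genes when 1 library was left out and 3 genes with only the groups compared. For enrichment in old mice (24mEE with 24mSC), for enrichment in young mice (5mEE with 5mSC) and for the interaction of age and environment, 0% of genes were called by edgeR, with 1037, 2759 and 1336 genes at an unadjusted p under 0.05, and 0 members in each. In these 3 comparisons DESeq2 called 31, 30 and 6 genes and limma-voom called 379, 0 and 0 genes, and neither tool called a member in any comparison. In no comparison of groups did the 5 libraries of 1 group lie wholly above or below those of the other for any of the 10 genes. The shares of all tested genes with such separated groups were 3.24% in 24mSC vs. 5mSC, 3.43% in 24mEE vs. 24mSC, 1.62% in 5mEE vs. 5mSC and 2.76% in 24mEE vs. 5mEE.

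**Figure D1:**
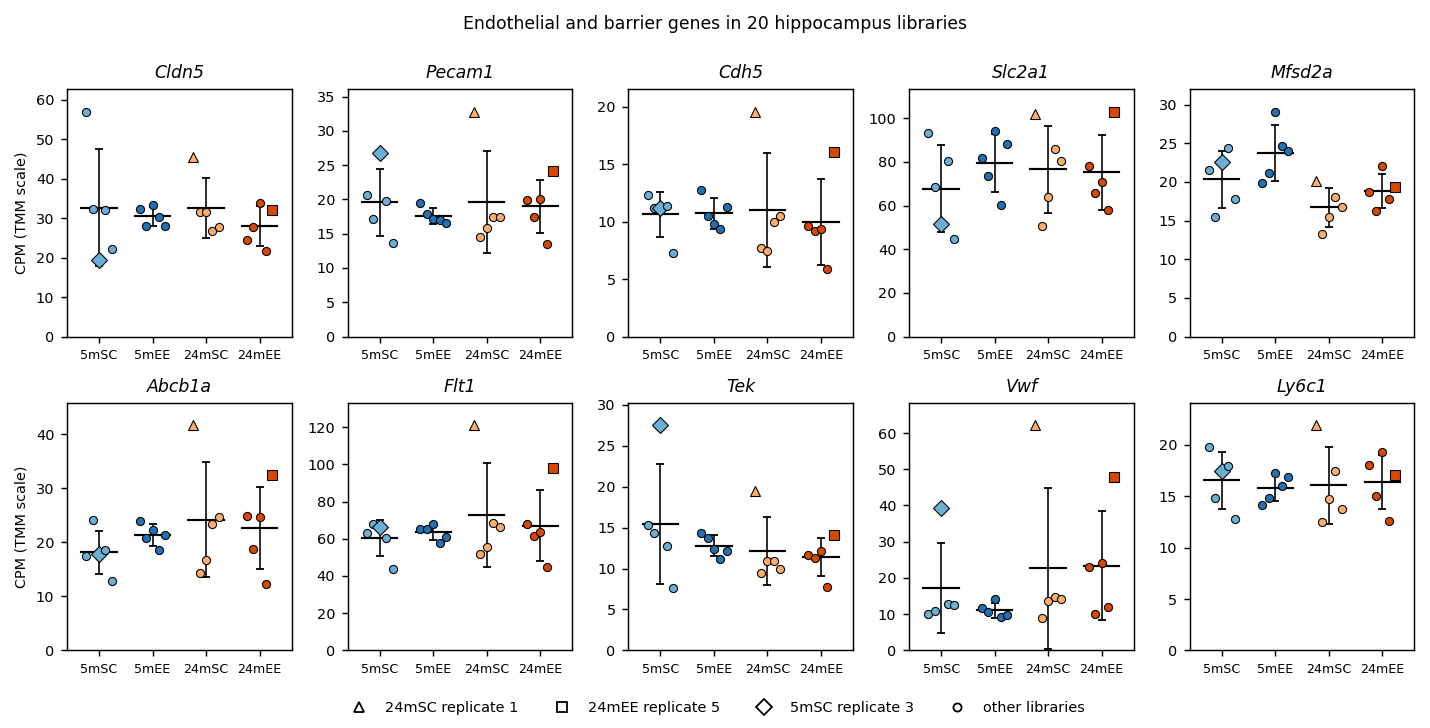
CPM on the TMM scale of each of the 10 genes in the 20 libraries by group, with a linear axis that starts at 0. Points are libraries, the black line and bar are the mean and SD of 5 libraries, and 3 libraries have a symbol of their own. For every gene the groups overlap, and the triangle, 24mSC replicate 1, is the highest point of its group in all 10 panels.

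Among the junction genes, Cldn5, the claudin that seals brain endothelial tight junctions (ENSMUSG00000041378, GRCm38 chr16:18776847-18778262, a single exon), had 57, 32.3, 19.4, 32 and 22.3 CPM in 5mSC replicates 1 to 5. It had 32.4, 28.1, 33.4, 30.3 and 27.9 CPM in 5mEE, 45.4, 31.5, 31.5, 26.7 and 27.8 CPM in 24mSC, and 24.5, 27.8, 33.8, 21.6 and 32.1 CPM in 24mEE. The highest and the lowest of the 20 values both belonged to 5mSC, so that the other 3 groups lay within its range. The means of 5mSC and 24mSC were 32.6 ± 14.8 and 32.6 ± 7.5 CPM (SD, n = 5 each). The log2 fold change with age was -0.01 ± 0.212 (SE, adjusted p = 0.981), and its 95% interval of -0.46 to 0.43 allows a ratio of 0.729 to 1.34. It was -0.15 without 5mSC replicate 3 and -0.18 without 24mSC replicate 1. Over all 20 alternatives it ran from -0.18 to 0.28 and changed sign in 7. Without 5mSC replicate 1, the library at 57 CPM, the 5mSC mean was 26.5 CPM. In 24mEE compared with 24mSC it was -0.22 ± 0.212 (adjusted p = 0.999, interval -0.66 to 0.22). Under the alternatives tried for that comparison it stayed negative, from -0.30 to -0.07. The value nearest 0, -0.07, was that without 24mSC replicate 1.

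Cdh5, the cadherin of endothelial adherens junctions (chr8:104101625-104144511), ranged from 7.26 to 12.3 CPM in 5mSC, from 9.38 to 12.8 CPM in 5mEE, from 7.41 to 19.6 CPM in 24mSC and from 5.85 to 16.1 CPM in 24mEE. Its means in these groups were 10.7 ± 1.96, 10.8 ± 1.37, 11 ± 4.98 and 10 ± 3.72 CPM (SD, n = 5 each), differences smaller than the spread within each group. Both ends of its range came from 24-month libraries. For Cdh5 the log2 fold change with age in standard cages was 0.05 ± 0.247 (SE, adjusted p = 0.928, interval -0.46 to 0.57), 0.06 without 5mSC replicate 3 and -0.27 without 24mSC replicate 1. Pecam1, an adhesion molecule of endothelial cell contacts (chr11:106654217-106750628), had means of 19.6 ± 4.91, 17.6 ± 1.11, 19.6 ± 7.5 and 19 ± 3.89 CPM in 5mSC, 5mEE, 24mSC and 24mEE (SD, n = 5 each). Its highest values were 32.8 CPM in 24mSC replicate 1 and 26.8 CPM in 5mSC replicate 3. For Pecam1 the log2 fold change with age in standard cages was 0.02 ± 0.198 (SE, adjusted p = 0.977, interval -0.40 to 0.43), and it became 0.13 without 5mSC replicate 3 and -0.26 without 24mSC replicate 1.

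Among the transporters, Mfsd2a, the carrier of lysophosphatidylcholine lipids that also limits transcytosis in brain endothelium (ENSMUSG00000028655, chr4:122946850-122961188), had the smallest spread within groups, with an SD of 0.217 on the log2 scale. It had 21.6, 15.4, 22.6, 24.4 and 17.8 CPM in 5mSC, and 19.8, 21.1, 29.1, 24.6 and 24 CPM in 5mEE. It had 20.1, 13.3, 15.4, 18 and 16.7 CPM in 24mSC, and 18.7, 16.2, 22, 17.8 and 19.4 CPM in 24mEE. All 5 libraries of 24mSC were below the 5mSC mean, and all 5 of 24mEE were below the 5mEE mean, although the groups overlapped in both cases. Means were 20.4 ± 3.68 CPM for 5mSC, 23.7 ± 3.62 for 5mEE, 16.7 ± 2.58 for 24mSC and 18.8 ± 2.16 for 24mEE (SD, n = 5 each). The log2 fold change of Mfsd2a was -0.28 ± 0.133 in 24mSC vs. 5mSC (SE, unadjusted p = 0.0446, adjusted p = 0.232, interval -0.56 to -0.01). It was -0.33 ± 0.131 in 24mEE vs. 5mEE (unadjusted p = 0.0184, adjusted p = 0.838, interval -0.61 to -0.06). Neither passed the adjustment over all genes. Under the alternatives the adjusted p ranged from 0.0853 to 0.445 in the first and from 0.19 to 1 in the second, and the sign was negative under each. With enrichment, the values were 0.22 ± 0.131 in young mice (adjusted p = 0.399) and 0.17 ± 0.133 in old mice (adjusted p = 0.999), positive under each alternative and also not past the threshold. Each group enters more than 1 of these comparisons, so the 4 values are not independent of each other.

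Slc2a1, the glucose transporter of the barrier (chr4:119108711-119137983), had means of 67.7 ± 20 CPM in 5mSC, 79.5 ± 13.2 CPM in 5mEE, 76.5 ± 19.7 CPM in 24mSC and 75.2 ± 17.4 CPM in 24mEE (SD, n = 5 each). Its log2 fold changes were 0.17 ± 0.202 in 24mSC vs. 5mSC (SE, adjusted p = 0.668) and 0.23 ± 0.201 in 5mEE vs. 5mSC (adjusted p = 0.57). The intervals, -0.25 to 0.59 and -0.19 to 0.65, allow a ratio of up to 1.51 and 1.56. Without 5mSC replicate 3 they were 0.08 and 0.14, and without 24mSC replicate 1 the first was 0.03. Abcb1a, a P-glycoprotein efflux pump (ENSMUSG00000040584, chr5:8660077-8748575), had 17.4, 24.1, 17.9, 18.5 and 12.8 CPM in 5mSC, and 24, 20.8, 22.2, 18.5 and 21.3 CPM in 5mEE. It had 41.6, 14.3, 16.8, 23.4 and 24.7 CPM in 24mSC, and 24.9, 18.8, 24.7, 12.2 and 32.5 CPM in 24mEE. A single library, 24mSC replicate 1, lay far above the rest of 24mSC, whose values of 14.3 to 24.7 CPM were close to those of the young libraries. The log2 fold change of Abcb1a was 0.42 ± 0.249 in 24mSC vs. 5mSC (SE, adjusted p = 0.35, interval -0.10 to 0.94), and 0.12 without 24mSC replicate 1.

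Among the signaling receptors, Flt1, a receptor for VEGF ligands (ENSMUSG00000029648, chr5:147561604-147726011, promoter shown above), had 63.2, 68, 66.6, 60.6 and 43.7 CPM in 5mSC, and 65.4, 65.1, 68.2, 58 and 61.2 CPM in 5mEE. It had 121, 51.8, 55.4, 68.5 and 66.1 CPM in 24mSC, and 67.9, 61.5, 63.8, 44.7 and 97.9 CPM in 24mEE. Values of 43.7 to 68.5 CPM held for 18 of the 20 libraries, and both higher values came from old mice, 1 in each housing. The log2 fold change of Flt1 in 24mSC vs. 5mSC was 0.27 ± 0.201 (SE, adjusted p = 0.47, interval -0.15 to 0.68), and -0.01 without 24mSC replicate 1. Tek, the receptor of the angiopoietins (ENSMUSG00000006386, chr4:94739289-94874976), had 15.3, 14.3, 27.5, 12.7 and 7.64 CPM in 5mSC, and 14.4, 13.7, 12.4, 11.2 and 12.2 CPM in 5mEE. It had 19.5, 9.4, 10.9, 10.9 and 10 CPM in 24mSC, and 11.7, 11.3, 12.2, 7.8 and 14.1 CPM in 24mEE. Its highest value belonged to 5mSC replicate 3 and its lowest to 5mSC replicate 5, so the young standard-cage group again spanned all others. The log2 fold change of Tek with age in standard cages was -0.31 ± 0.248 (SE, adjusted p = 0.492, interval -0.83 to 0.20), -0.04 without 5mSC replicate 3 and -0.56 without 24mSC replicate 1.

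Vwf, the adhesive protein that endothelial cells store and release for platelet capture (ENSMUSG00000001930, chr6:125546774-125686679), had 10.1, 11, 39.2, 12.7 and 12.6 CPM in 5mSC, and 11.6, 10.5, 14.2, 9.08 and 9.77 CPM in 5mEE. It had 62.1, 8.83, 13.6, 14.6 and 14.2 CPM in 24mSC, and 22.9, 9.98, 24, 12.1 and 47.8 CPM in 24mEE. Most libraries lay between 8.83 and 14.6 CPM, and 5 libraries stood above this range, 1 in 5mSC, 1 in 24mSC and 3 in 24mEE. The means were 17.1 ± 12.4, 11 ± 1.98, 22.7 ± 22.2 and 23.4 ± 15 CPM in 5mSC, 5mEE, 24mSC and 24mEE (SD, n = 5 each). In 24mEE vs. 5mEE the log2 fold change of Vwf was 1.08 ± 0.492 (SE, unadjusted p = 0.0393, adjusted p = 1), with an interval of 0.06 to 2.11, and 4 of 5 libraries of 24mEE were above the 5mEE mean. It was positive under each alternative and 0.65 without 24mEE replicate 5. In 24mSC vs. 5mSC it was 0.46 ± 0.493 (adjusted p = 0.627, interval -0.56 to 1.49), but -0.37 without 24mSC replicate 1 and 0.95 without 5mSC replicate 3. In 24mEE vs. 24mSC it was 0.04 ± 0.482 (adjusted p = 0.999, interval -0.96 to 1.05), 0.87 without 24mSC replicate 1 and -0.39 without 24mEE replicate 5. In both comparisons with 24mSC the sign of the Vwf value turned on 1 library. The summed level of 6 platelet markers was 11.4 CPM in 5mSC replicate 3, 5.3 CPM in 24mSC replicate 1 and 3.25 CPM in 24mEE replicate 5, against a median of 3.68 to 3.98 CPM in the 4 groups, and their part in the Vwf values was not tested.

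Ly6c1, a lipid-anchored surface protein abundant on capillary endothelium (chr15:75044018-75048830), had the smallest ratio of highest to lowest value. Its means were 16.6 ± 2.78 CPM in 5mSC, 15.8 ± 1.33 CPM in 5mEE, 16.1 ± 3.75 CPM in 24mSC and 16.4 ± 2.63 CPM in 24mEE (SD, n = 5 each). Its log2 fold change was -0.04 ± 0.146 in 24mSC vs. 5mSC (SE, adjusted p = 0.902) and 0.03 ± 0.145 in 24mEE vs. 24mSC (adjusted p = 0.999). The intervals, -0.34 to 0.26 and -0.27 to 0.33, allow ratios of 0.788 to 1.2 and 0.828 to 1.26. Without 24mSC replicate 1 these were -0.19 and 0.17, and without 5mSC replicate 3 the first was -0.03. Its homolog Ly6c2, a monocyte gene that shares words with it, was at a mean of 0.0965 to 0.306 CPM in the 4 groups.

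**Figure D2:**
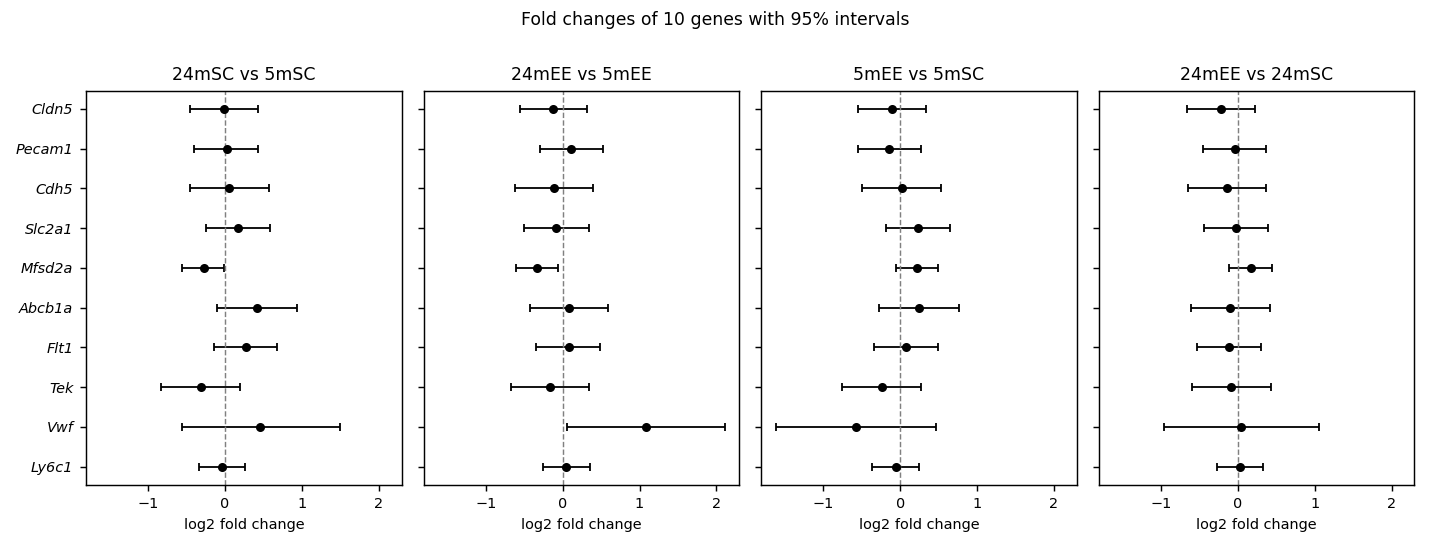
Log2 fold change (first group minus second, x axis) of each of the 10 genes in 4 comparisons, with points for the edgeR estimate and bars for its 95% interval. Of the 40 intervals, 3 lie wholly on one side of 0, those of Mfsd2a in both age comparisons and of Vwf in 24mEE vs. 5mEE, and none of these passed the adjustment over all genes.

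The direction of the 10 genes as a set moved with 1 or 2 libraries. In 24mSC vs. 5mSC, 6 of 10 log2 fold changes were above 0 with a median of 0.03, beside a median of -0.01 over all genes. Without 24mSC replicate 1, 2 of 10 were above 0 with a median of -0.23. Without 5mSC replicate 3, 6 of 10 were above 0 with a median of 0.07, and without both 5mSC replicates 1 and 3, 9 of 10 were above 0 with a median of 0.20. Of 5mSC, replicate 1 had the highest sum of the 10 genes, 331 CPM against 195 to 300 CPM. Its omission therefore lowers the level to which the other groups are compared. In 24mEE vs. 24mSC, 3 of 10 were above 0 with a median of -0.07, and 9 of 10 with a median of 0.17 without 24mSC replicate 1. Leaving out 24mEE replicate 5 instead gave 2 of 10 above 0 and a median of -0.22, and leaving out both gave 6 of 10 and a median of 0.04. In 5mEE vs. 5mSC, 5 of 10 were above 0 with a median of -0.02. This became 6 of 10 with a median of 0.04 without 5mSC replicate 3 alone, and 9 of 10 with a median of 0.14 without both 5mSC replicates 1 and 3. In 24mEE vs. 5mEE, 5 of 10 were above 0 with a median of -0.01, and 3 of 10 with a median of -0.13 without 24mEE replicate 5. The interaction of age and environment was negative for 6 of 10 genes, from -0.34 for Abcb1a to 0.62 for Vwf, with adjusted p from 0.785 to 0.952. It was positive for 8 of 10 genes without 24mSC replicate 1.

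The libraries behind these changes stood out across genes. In 24mSC replicate 1, each of the 10 genes was at its highest value of the group, and Pecam1, Flt1, Cdh5, Abcb1a, Vwf and Ly6c1 were at the highest value of all 20 libraries. Relative to the mean of the other 4 libraries of 24mSC, Vwf was 4.84 times, Cdh5 2.21 times, Abcb1a 2.1 times, Pecam1 2.02 times and Flt1 2 times as high, whereas Slc2a1 was 1.45 times and Mfsd2a 1.27 times as high. In 24mEE replicate 5, 7 of the 10 genes were at the highest value of the group, with Vwf at 2.77 times, Cdh5 at 1.89 times and Flt1 at 1.65 times the mean of the other 4 libraries, but Mfsd2a at 1.04 times and Ly6c1 at 1.05 times. At the other end, 24mSC replicate 2 and 24mEE replicate 4 were the lowest of their group for 8 genes each, and 5mSC replicate 5 for 7 genes. 5mSC replicate 3 was split, with Vwf at 3.38 times and Tek at 2.21 times the mean of the rest of 5mSC, and Cldn5 at 0.54 times and Slc2a1 at 0.717 times.

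**Figure D3:**
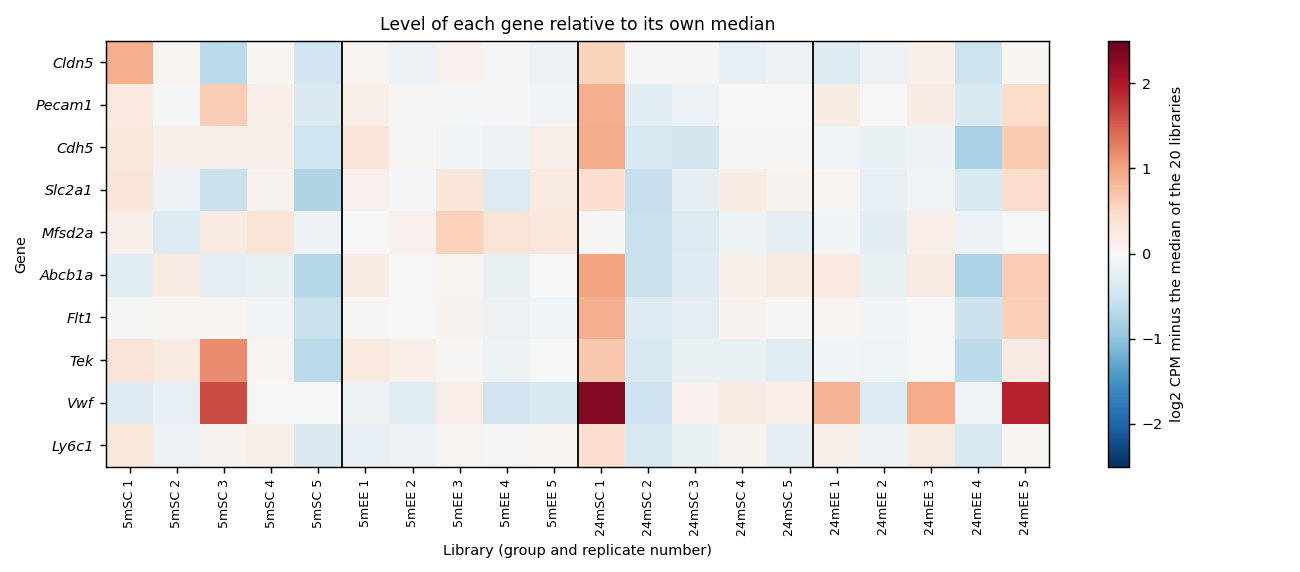
Log2 CPM of each of the 10 genes (rows) minus its median over the 20 libraries, for each library (columns, in 4 groups separated by black lines), with red above and blue below the median. In 24mSC replicate 1 each of the 10 genes is above its median, but Mfsd2a only slightly, at 20.1 CPM against 19.6 CPM. Computed with 0.5 added to each CPM, which the plot omits, the median over the genes was 0.77 in this library and 0.45 in 24mEE replicate 5. It was -0.46 in 5mSC replicate 5 and -0.45 in 24mEE replicate 4.

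The 2 libraries of old mice in which the genes were highest held both of the highest values of all 20 libraries for Flt1, Cdh5, Slc2a1, Abcb1a and Vwf. This pattern was chosen after the values were seen, and 140 of 16692 genes (0.839%) show it. Of the 18 endothelial core genes, 3 show it (Ptprb, Podxl and Eng), and among other genes the endothelial receptor Adgrf5 and the transcription factor Erg do. Podxl, which encodes a sialomucin of the luminal surface, had 59.1 CPM in 24mSC replicate 1 and 52.6 CPM in 24mEE replicate 5, against 24.2 to 37.8 CPM in the other 18 libraries. Adgrf5 had 62.7 and 55.9 CPM, against 24.2 to 40.6 CPM.

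Endothelial core and pericyte markers were also high in these 2 libraries, though not in them alone. The endothelial core sum was 465 CPM in 24mSC replicate 1 (312 to 331 CPM in the rest of 24mSC) and 385 CPM in 24mEE replicate 5 (265 to 350 CPM in the rest of 24mEE). The sum of 12 pericyte markers was 357 CPM in 24mSC replicate 1 (236 to 248 CPM in the rest of its group) and 282 CPM in 24mEE replicate 5 (209 to 243 CPM). The second highest values of all 20 libraries belonged to 5mSC, with an endothelial core sum of 408 CPM in replicate 1 and a pericyte sum of 288 CPM in replicate 3. The smooth muscle sum was 63.5 CPM in 24mSC replicate 1 (45.5 to 53.2 CPM) and 70.5 CPM in 24mEE replicate 5 (48.7 to 66.7 CPM). The fibroblast sum was 146 CPM in 24mSC replicate 1, inside the 108 to 174 CPM of the rest of its group, and 128 CPM in 24mEE replicate 5 (96.6 to 121 CPM). A single gene, Pdgfra, makes up much of this sum, with a mean of 52.2 CPM in 5mSC, where the median sum was 134 CPM. In 5mEE vs. 5mSC Pdgfra was at log2 0.33, whereas 7 of the 8 genes of this list were below 0. The sum can thus move apart from most genes of its list. The red blood cell sum, 233 CPM in 24mSC replicate 1, was 48.7 CPM in 24mEE replicate 5, within the 34.7 to 62.7 CPM of its group. Neuronal markers were at 5266 CPM in 24mSC replicate 1 (5158 to 5312 CPM) and 5397 CPM in 24mEE replicate 5 (4960 to 5591 CPM). A fit with the endothelial core mean as a covariate, which compares groups at an equal core level, called none of the 10 genes. The part of vessel content or blood in the values of the 10 genes was itself not tested.

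**Figure D4:**
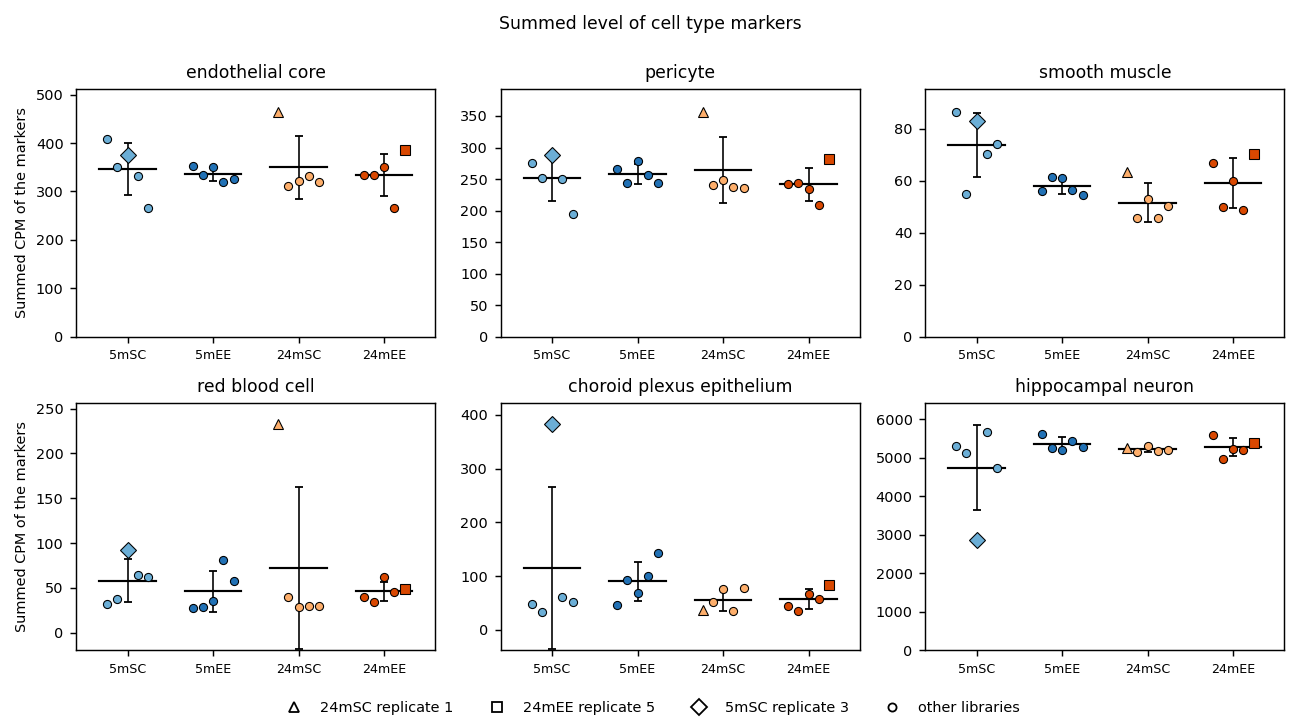
Summed CPM of 6 marker lists in each library by group, with points for libraries, the black line and bar for the mean and SD of 5 libraries, and the same symbols for 3 libraries as in the plot of the 10 genes. The axes start at 0 except where an SD bar reaches below 0. The triangle, 24mSC replicate 1, is at 465 CPM of endothelial core markers, 357 CPM of pericyte markers and 233 CPM of red blood cell markers, and the diamond, 5mSC replicate 3, is at 384 CPM of choroid plexus markers.

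The pattern of each gene over the 20 libraries was set beside the mean of the 10 standardized log2 CPM profiles. This is a description over 20 libraries of 1 tissue that share their composition and depth. Each of the 10 genes is itself part of this mean, which raises its correlation with it. The values of the 10 genes and of other genes are therefore not alike and are not compared. Among the 10 genes, Spearman's rho to this mean was 0.869 for Pecam1, 0.833 for Tek, 0.811 for Ly6c1 and 0.808 for Cdh5, and lowest for Cldn5 at 0.544. Among all other genes the highest values were 0.937 for Sema3g, 0.902 for Lamc3, 0.899 for Acvrl1, 0.865 for Col4a1 and 0.859 for Notch4. Acvrl1 is an endothelial receptor of the BMP family, Notch4 an endothelial Notch receptor, and Col4a1 a collagen of the vascular basement membrane.

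Further genes of the barrier were examined as lists, with the number called by edgeR and the median log2 fold change beside that of all genes. In 24mSC vs. 5mSC the median of all genes was -0.01. Of all genes of these lists 2 were called, and between 0 and 18 when 1 of the 10 libraries compared was left out. The lists hold 206 genes. The number called was 18 without 5mSC replicate 2, where 1127 of all genes were called, and 1 without 24mSC replicate 1. It was 10 without 5mSC replicate 3, where 3.58% of all genes were called. Those added without 5mSC replicate 3 were Abcc1, Angpt1, Gfap, Sall1 and Slc6a6, with higher values in 24mSC, and Acta2, Fcgrt and Spink8, with lower values. Without both 5mSC replicates 1 and 3, 4 genes were called, Cx3cr1, Tagln, Jam2 and Zbtb20, beside 363 of 16947 genes in all. The 18 endothelial core genes had a median of 0.06 with 0 called, and of -0.21 without 24mSC replicate 1. The gene with the smallest p was Ramp2, a receptor activity modifier of adrenomedullin signaling, at 13.1 ± 2.09 and 17.5 ± 3.08 CPM (24mSC and 5mSC, SD, log2 -0.42, adjusted p = 0.0738). Of 13 tested junction genes 0 were called, with a median of -0.04, and of 0.07 without 5mSC replicate 3. Occludin (Ocln) had the smallest p of this list at 10.7 ± 1.87 and 15 ± 4.03 CPM (log2 -0.47, adjusted p = 0.119, and log2 -0.33 without 5mSC replicate 3). Of 18 further transporters 0 were called, with a median of 0.06, and the taurine transporter Slc6a6 was at 162 ± 22.1 and 127 ± 15.5 CPM (log2 0.36, adjusted p = 0.0722). Without 5mSC replicate 3 its adjusted p was 0.0285 and without 24mSC replicate 1 it was 0.183. The 12 genes of transcytosis and receptors had a median of -0.03, and of 0.08 without 5mSC replicate 3. The smallest p of this list belonged to Ager (log2 -2.69, adjusted p = 0.0794), at 0.467 ± 0.1 and 3.34 ± 5.81 CPM. The value of Ager rested on 5mSC replicate 3, at 13.7 CPM against 0.208 to 1.6 CPM in the other 4 libraries of 5mSC, and without it the log2 fold change was -0.72 (adjusted p = 0.289).

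The signaling and regulatory lists held 0 called genes in this comparison as well, with all 20 libraries. The 16 genes of VEGF, angiopoietin and Notch signaling had a median of 0.07, and of -0.10 without 24mSC replicate 1. Angpt1, the ligand that activates Tek, was at 10.2 ± 1.89 and 7.41 ± 1.82 CPM (SD, log2 0.48, adjusted p = 0.0973). Its adjusted p was 0.047 without 5mSC replicate 3 and 0.124 without 24mSC replicate 1. Angpt1 was also the gene of its list with the smallest p in 24mEE vs. 24mSC, at 6.55 ± 0.758 and 10.2 ± 1.89 CPM (log2 -0.64, adjusted p = 0.264), and in the interaction (log2 -0.73, adjusted p = 0.613). The 24mSC libraries enter each of these comparisons. The 13 genes of Wnt barrier signaling had a median of -0.05, with Tspan12, a co-activator of norrin signaling, at log2 -0.30 (adjusted p = 0.119). The 16 endothelial transcription factors had a median of -0.01 (-0.16 without 24mSC replicate 1), with Klf4 at log2 -0.49 (adjusted p = 0.136). Of 9 tested endothelial activation genes 0 were called, with a median of 0.08 and Tnfrsf1a at log2 0.27 (adjusted p = 0.108). The median was -0.04 over the 10 genes tested without 24mSC replicate 1. Sele, the selectin of activated endothelium, had 0 counts in at least 10 of the 20 libraries, and a count of 0 allows a level of up to 0.0882 to 0.329 CPM depending on the library. It was at 5.37 CPM in 5mSC replicate 3 and at 0 to 0.122 CPM in the rest of 5mSC.

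Of the cells around the vessel, all 8 smooth muscle genes had lower values in 24mSC than in 5mSC and 1 of them passed the test, beside 0.803% of all genes called in this comparison. This was Tagln, which encodes the actin-binding protein transgelin, at 3.92 ± 1.01 and 7.61 ± 2.03 CPM (SD, log2 -0.97 ± 0.195 SE, adjusted p = 0.0239). The call was kept in 5 of 10 omissions of 1 library and lost without 5mSC replicate 5 and without 24mSC replicates 2, 3, 4 and 5, with adjusted p from 0.00397 to 0.0629 over all 10. The list had a median of -0.75, of -0.57 without 5mSC replicate 3 and of -0.97 without 24mSC replicate 1. It had a median of -0.52 in 5mEE vs. 5mSC, with all 8 genes lower in value and 0 called, and of 0.00 in 24mEE vs. 5mEE, with 4 genes on either side of 0. The highest sums of the 20 libraries were those of 5mSC replicates 1 and 3, at 86.7 and 82.9 CPM. Without both, the median in 24mSC vs. 5mSC was -0.32, with all 8 genes lower and Tagln called. In 5mEE vs. 5mSC it was then -0.39, with 7 of 8 genes lower. The summed smooth muscle level was 45.5 to 63.5 CPM in the old and 55 to 86.7 CPM in the young group. Of 12 pericyte genes 0 were called, with a median of 0.02 (-0.19 without 24mSC replicate 1), and the proteoglycan gene Cspg4, which oligodendrocyte precursors also express, had the smallest p at log2 0.41 (adjusted p = 0.0714). The 8 fibroblast genes had a median of -0.61 and the 8 tested choroid plexus genes a median of -0.80, with 0 called in either. In 5mSC replicate 3 the fibroblast sum was 206 CPM, against 113 to 165 CPM in the rest of its group, and the choroid plexus sum was 384 CPM, as given above. Without this library the fibroblast median was -0.40, and the choroid plexus median was 0.45 with 6 of 8 genes above 0. The median choroid plexus sum was 51.5 CPM in 24mSC and 52 CPM in 5mSC. The smallest p values were those of Col3a1 (log2 -1.37, adjusted p = 0.0701) and Sostdc1 (log2 -0.76, adjusted p = 0.0967). All 7 microglia genes had higher values in 24mSC and 1 of them passed the test. This was Cx3cr1, the receptor of the neuronal ligand fractalkine, at 58.4 ± 2.5 and 39.9 ± 10.4 CPM (log2 0.54 ± 0.123, adjusted p = 0.0433). The call of Cx3cr1 was kept in 4 of 10 omissions and lost without 5mSC replicate 1 and without any 1 of the 24mSC libraries, with adjusted p from 0.0153 to 0.109. Without 5mSC replicate 3, where Cx3cr1 was at 25.4 CPM, its log2 fold change was 0.42 (adjusted p = 0.0155). The median of the microglia list was 0.26, and 0.12 with 6 of 7 genes above 0 without 5mSC replicate 3. The summed microglia level of this library was 220 CPM, against 332 to 399 CPM in the rest of its group, where replicate 1 was lowest. Without both 5mSC replicates 1 and 3, 5 of 7 genes were above 0 with a median of 0.08. Cx3cr1 was then at log2 0.30 (adjusted p = 0.0188). The red blood cell, platelet and perivascular macrophage lists had medians of 0.49, -0.47 and -0.41 with 0 called genes, the first becoming -0.79 without 24mSC replicate 1, and 9 of 10 lymphocyte and monocyte genes did not pass the filter. The astrocyte and hippocampal neuron lists had a median of 0.08 each and 0 called genes, with Gfap at log2 0.68 (adjusted p = 0.0514) and Spink8 at log2 -0.61 (adjusted p = 0.0587). Without 5mSC replicate 3 their adjusted p values were 0.0402 and 0.0297, and the medians of these 2 lists were 0.00 and -0.03.

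In 24mEE vs. 24mSC, 5mEE vs. 5mSC and 24mEE vs. 5mEE, 0 genes of the 19 companion lists were called. Medians of the endothelial core were -0.09, -0.09 and 0.02 in these comparisons, those of the pericyte list -0.14, -0.15 and -0.02, and those of the junction list -0.12, -0.02 and -0.03, beside medians of all genes between -0.02 and 0. Without 5mSC replicates 1 and 3, the medians in 5mEE vs. 5mSC were 0.11 for the endothelial core and 0.09 for the pericyte list. In 24mEE vs. 24mSC, 11 of 12 pericyte and 13 of 18 endothelial core genes were lower, and the 24mSC group holds replicate 1, in which both lists were highest. Without that library, 6 of 12 pericyte genes (median 0.01) and 5 of 18 endothelial core genes (median 0.13) were lower, so the direction did not hold. The smallest p values in this comparison were those of Kdr, the main signaling receptor of VEGF-A, among core genes (13.1 ± 2.33 and 16 ± 7.81 CPM, adjusted p = 0.999), of Cldn1 among junction genes (1.01 ± 0.906 and 3.39 ± 1.14 CPM, log2 -1.74, adjusted p = 0.367) and of Cav2, a caveolin, among transcytosis genes (29.2 ± 6.1 and 41.8 ± 6.4 CPM, log2 -0.52, adjusted p = 0.331). In 5mEE vs. 5mSC, Egfl7 (21.2 ± 0.825 and 27.7 ± 7.88 CPM, log2 -0.37, adjusted p = 0.228) and the pericyte gene Rgs5 (125 ± 11.8 and 99.9 ± 17.7 CPM, log2 0.32, adjusted p = 0.225) had the smallest p of their lists, with log2 -0.22 and 0.23 without 5mSC replicate 3. In 24mEE vs. 5mEE these were Itm2a among core genes (34.6 ± 4.69 and 46.3 ± 4.37 CPM, log2 -0.42, adjusted p = 0.599) and Vcam1, a leukocyte adhesion molecule, among activation genes (21.7 ± 3.04 and 28 ± 2.64 CPM, log2 -0.37, adjusted p = 0.407). Vcam1 went against most of its list, in which 6 of 9 tested genes were above 0 with a median of 0.19.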

How the data were processed

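RNA of 20 hippocampus libraries was sequenced, 5 per group, and the authors deposited raw whole-number read counts per Ensembl gene. The submitters' processing notes name bcl2fastq 1.8.2, STAR 2.4.1d, featureCounts 1.4.6-p4 and GRCm38. According to the paper, its own results came from another alignment. The deposited RPKM values were not used, since their ratio to the counts did not follow library totals. Identifiers were matched to GENCODE M21 (99.1%). In R 4.3.3, edgeR 4.0.16 removed low genes (filterByExpr, least count 10, least total 15), scaled libraries by TMM and fitted 1 quasi-likelihood model of 4 groups to all 20 libraries (common biological coefficient of variation 17.4%). The 5 contrasts were adjusted by Benjamini-Hochberg over all genes. Alternatives were DESeq2 1.42.0 (size factors or Wald test), limma 3.58.1 voom with quality weights, no filter, a CPM of 1 in 5 libraries, the compared groups alone, the endothelial core mean as a covariate and left-out libraries, of which the joint omission of 24mSC 1 and 24mEE 5, alone or with 5mSC 1 and 3, was chosen after seeing the data. The fit was tested on simulated data.

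The genes and lists were named with earlier results of these data known, although no value enters the rule for the 10 genes. Named genes are the 10 genes, up to 3 called genes per list and comparison or else the gene with the smallest p (a part of these are given), and the 5 genes nearest in pattern. Others were chosen after their values were seen. The labels give no sequencing run and no replicate number. Numbers follow the order of deposition and pair nothing, and p values measure only the spread between libraries. No 2 libraries of a group agreed within sampling noise. The floor of 3 counts covers counting error only, since PCR copies are not independent molecules, whereas the 95% intervals come from the edgeR fit and include the spread between libraries.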

Additional observations from a re-analysis of the deposited data

Results flagged for a closer look

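In 8 of the 40 sets of 5 libraries (10 genes in 4 groups), 1 library lay far from the other 4 by a test of the gap over the range. Chance alone gives about 1 in 20 such sets, and the sets share libraries. Of these, 6 were high values in 24mSC replicate 1. They were Cldn5 at 45.4 CPM (26.7 to 31.5 CPM in the other 4 libraries), Pecam1 at 32.8 CPM (14.5 to 17.5 CPM), Flt1 at 121 CPM (51.8 to 68.5 CPM), Cdh5 at 19.6 CPM (7.41 to 10.5 CPM), Vwf at 62.1 CPM (8.83 to 14.6 CPM) and Tek at 19.5 CPM (9.4 to 10.9 CPM). Vwf in 5mSC replicate 3 was also high, at 39.2 CPM against 10.1 to 12.7 CPM. Cdh5 in 5mSC replicate 5 was low, at 7.26 CPM against 11.2 to 12.3 CPM. No interaction of age and environment passed the test for any of the 10 genes.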

How the results depend on the processing

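None of the 10 genes was called under any of 30 alternatives, and the lowest adjusted p of any was 0.0853 (Mfsd2a in 24mSC vs. 5mSC, without 5mSC replicate 2). Of 50 log2 fold changes (10 genes in 5 comparisons), 33 changed sign under some alternative and 17 did not. By more than the SD within groups, only those of Vwf moved, without 24mSC replicate 1 (-0.37 in 24mSC vs. 5mSC, 0.87 in 24mEE vs. 24mSC, 1.46 in the interaction) and without 24mSC replicate 1 and 24mEE replicate 5 (-0.37 in 24mSC vs. 5mSC). The number of all genes called depended more on the setting. In 24mSC vs. 5mSC it was 134, against 759 by DESeq2, 306 by limma-voom, 59 without a filter, 3 with only the groups compared, 363 without 5mSC replicates 1 and 3, and 38 without 24mSC replicate 1 and 24mEE replicate 5. In 24mEE vs. 24mSC it was 0, against 31, 379 and 187 by DESeq2, limma-voom and with only the groups compared, and 10 without 5mSC replicates 1 and 3. In 5mEE vs. 5mSC it was 0, against 30 by DESeq2. In 24mEE vs. 5mEE it was 18, against 39, 162, 9 and 52 by DESeq2, by limma-voom, without a filter and with only the groups compared. It was 97 without 5mSC replicates 1 and 3, 3 without 24mSC replicate 1 and 24mEE replicate 5, and 38 without all of these. In the interaction it was 0, against 6 by DESeq2 and 1 each without 5mSC replicates 1 and 3 and without these and the 2 old libraries. With single libraries left out, the counts ranged from 30 (without 24mSC replicate 3) to 1127 (without 5mSC replicate 2), 0 to 1, 0 to 1, 3 to 12 and 0 to 1 in these 5 comparisons in the order given. The causes were not tested. Without a filter the median of all genes moved to -0.13, -0.14 and 0.17 in 24mSC vs. 5mSC, 5mEE vs. 5mSC and the interaction. No paired analysis was possible because the labels give no replicate numbers. With 102 counts or more per gene and library, the spread between libraries, not depth, set the width of the intervals.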

Other observations

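Outside the vessel, the markers with the smallest p of their lists were examined for enrichment in old mice. Spink8, a marker of CA1 pyramidal neurons, was at 20.7 ± 4.1 CPM in 24mSC and 31.3 ± 5.29 CPM in 24mEE (SD, n = 5 each). Its log2 fold change by edgeR was 0.59 ± 0.157 (SE, adjusted p = 0.309), which did not pass the threshold. Kl, which encodes klotho and is on the choroid plexus list, was at 21 ± 0.732 CPM in 24mSC and 28.9 ± 3.87 CPM in 24mEE (log2 0.46 ± 0.114, adjusted p = 0.271). In young mice Kl was at 22.7 ± 1.92 CPM in 5mSC and 28.9 ± 5.74 CPM in 5mEE (log2 0.35 ± 0.114, adjusted p = 0.223). In old mice Kl was 1 of 2 among 8 tested choroid plexus genes that were above 0, and the list had a median log2 fold change of -0.23. In young mice 3 of 8 were above 0 with a median of -0.17, and 7 of 8 with a median of 0.88 without 5mSC replicate 3. In that library Kl was at 22.5 CPM, within the 20.7 to 25.9 CPM of the rest of 5mSC, although the choroid plexus sum was at its highest of the 20 libraries. Kl thus did not follow its list there, and its cell source was not tested.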
